A study of Homo sapiens with 6 samples.

Results

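EMP1, EMP2, EMP3 and PMP22 form the family of small epithelial membrane proteins, and their 4 genes were taken by symbol from a table of 20020 genes counted in irradiated HCT116 colorectal carcinoma cells. The family was chosen by its EMP1 row, selected on the difference in EMP1 counts between the groups, so the EMP1 contrast is given as a description with no p. EMP2, EMP3 and PMP22 came in by family name. All 4 passed the filter on low counts, as did 12925 genes in the table. CAD-KO+IR cells carried the CAD knockout, made with a lentiCRISPRv2 guide against the nuclease gene DFFB, whose protein is caspase-activated DNase (CAD). The paper lists guides CAD-KO1 and CAD-KO2 for the human gene and names CAD-KO2 cells in its enrichment result, while the sample titles name no guide. The sgVec+IR cells carried the vector as control. Each group had 3 libraries. Both groups were irradiated with 8 Gy and collected 24 h later, and no unirradiated library stands beside them. Neither the labels nor the methods say whether the knockout line is 1 clone or whether the replicates were separate cultures, and p-values then measure only the spread between these libraries.

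Proteins of this family cross the membrane as tetraspan proteins and share the fold of the claudins, the strands of tight junctions. PMP22 is a component of compact myelin in Schwann cells, where too much or too little of it causes inherited neuropathies, and it is also made at epithelial junctions. EMP1 is known in colorectal cancer as a marker of cells that persist after surgery and seed liver metastases. EMP2 is known to act on the surface level and signalling of integrins and on caveolin, and EMP3 is a glycoprotein often silenced by promoter methylation in glioma.

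Libraries held 14032994 to 19574144 counts, of which 1703 to 3214 fell on the 4 members together. DFFB checked the labels, at 10.03, 10.1 and 12.4 CPM (counts scaled to library size by the TMM method) in CAD-KO+IR and 21.8, 22.9 and 20.9 CPM in sgVec+IR. Among colorectal epithelial markers, 7 of 10 were tested, with summed levels of 2768 to 3940 CPM in CAD-KO+IR and 2081 to 4033 CPM in sgVec+IR. In that list CDX1 had no count, and VIL1 and LGR5 reached at most 3 and 9 counts. Of the 8 markers of T cells, leukocytes, macrophages, fibroblasts and endothelium, CD3E had no count and PTPRC at most 3, and their sum of 30.1 to 43.9 and 14.9 to 54.7 CPM came mostly from COL1A1. The library sgVec+IR replicate 3 stood apart, with a correlation of 0.886 and 0.890 to the other sgVec+IR libraries against 0.993 between those, and with 7561 genes at 0 counts against 4577 to 5232 in the others. CAD-KO+IR replicate 2 stood apart less, at 0.969 and 0.975 with its own group. Values are therefore given with and without these libraries where they decide a result.

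In release 29 of the GENCODE annotation on GRCh38, EMP1 lies on the forward strand of chromosome 12 from 13196716 to 13219939 and overlaps no other gene. EMP2 lies on the reverse strand of chromosome 16 from 10528422 to 10580698, and PMP22 on the reverse strand of chromosome 17 from 15229777 to 15265357. EMP3 lies on the forward strand of chromosome 19 from 48321509 to 48330553 and overlaps ODAD1 on the other strand, the only gene in the count table that overlaps a member. ODAD1 had at most 59 counts in a library. The strand setting of the counting is not given in the sources used here, so reads of EMP3 and ODAD1 in their shared stretch cannot be told apart.

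The coding sequences of EMP1 and EMP2 were the most alike, with 310 of 459 aligned bases identical (67.5%), and those of EMP1 and PMP22 the least alike (58.9%). The longest stretches that any 2 members shared without a mismatch are shown because a read that covers more than such a stretch differs between the members of the pair. Capitals mark the shared bases, which lie in the coding sequences of the named pair.

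EMP3 and PMP22, 24 bases: CCTGGCCTGGGTGGCCTTCCCCCT
EMP2 and PMP22, 20 bases: GTCCAGGCCACCATGATCCT
EMP1 and EMP2, 13 bases: TCCTACATCCTGG

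The promoters of EMP1 and EMP3 are shown because these are the 2 members whose groups did not overlap in expression. The windows come from RefSeq on GRCh38.p14 and run from 250 bases before the annotated start to 50 after it, as chr12:13196476-13196775 for EMP1 and chr19:48325302-48325601 for the first of 2 EMP3 windows, both on the forward strand. Capitals mark TGAGTCA, the letters bound by AP-1, a factor of growth and stress signalling.

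EMP1: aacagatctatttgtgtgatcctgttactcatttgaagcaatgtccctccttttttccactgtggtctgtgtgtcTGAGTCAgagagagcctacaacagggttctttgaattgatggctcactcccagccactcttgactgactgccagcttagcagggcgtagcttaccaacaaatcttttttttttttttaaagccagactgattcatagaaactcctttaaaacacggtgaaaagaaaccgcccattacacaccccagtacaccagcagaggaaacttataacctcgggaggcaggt
EMP3: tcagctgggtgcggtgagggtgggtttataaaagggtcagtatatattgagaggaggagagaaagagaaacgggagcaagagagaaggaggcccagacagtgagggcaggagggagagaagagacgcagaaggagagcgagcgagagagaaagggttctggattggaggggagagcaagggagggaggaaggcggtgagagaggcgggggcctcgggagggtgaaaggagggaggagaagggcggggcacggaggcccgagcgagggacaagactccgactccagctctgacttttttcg

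TGAGTCA was searched on both strands, and it occurred once in the EMP1 window, 175 bases before the start, and in none of the 6 windows of the other members. Of all 35116 promoters of this length, 1738 (4.95%) held it. The EMP1 window had 44.3% GC, at the 19.4th percentile of promoters, while the EMP2 window had 77.0% and the first EMP3 window 59.3%. Among the other motifs searched, the GC box GGGCGG (45.0% of promoters) occurred in the EMP1, EMP2 and first EMP3 windows and in part of the PMP22 windows. TATAAA (11.5% of promoters) was found only in the first EMP3 window, where its 2 matches overlap on opposite strands in the same stretch. The letters TGACGTCA and GGAATG were also searched and matched in no window of a member. The motifs were chosen after the sequences had been seen, and a match of letters is not a bound site.

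EMP1 was higher in every CAD-KO+IR library than in any sgVec+IR library, with a fitted fold of 2.20. It stood at 57.2, 61.5 and 64.7 CPM (1056, 1166 and 1136 counts) in CAD-KO+IR and at 23.1, 26.6 and 33.7 CPM (378, 388 and 478 counts) in sgVec+IR. The lowest knockout library lay well above the highest control library. The means were 61.1 ± 3.74 and 27.8 ± 5.40 CPM (SD, n = 3 each), a log2 fold change of 1.14 with a standard error of 0.198.

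In bulk RNA, more cells with EMP1 transcript and more transcript in each cell cannot be told apart. EMP1 had a within-group SD of 0.204 on the log2 CPM scale, against a median of 0.331 for the 2486 genes of like level, at their 26.4th percentile. This SD is a description, since it comes from the libraries on which EMP1 was selected. Leaving out sgVec+IR replicate 3, in which EMP1 was the highest of its group, gave a log2 difference of 1.30. After a lowess trend on transcript GC content was removed from each library, EMP1 stood at 62.0, 53.4 and 67.7 CPM against 25.5, 29.5 and 27.04 CPM, and the log2 fold change was 1.16.

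The study's rule for differentially expressed genes (DEGs) asks for an adjusted p under 0.05 and a fold of at least 1.5. By that rule edgeR called 0 of the 4 members, against 4 of 12925 genes (0.0309%). DESeq2, the tool of the study, was rerun here on the deposited counts. It called EMP1 among 20 upregulated genes (0.12%, and 0.245% in either direction) and none of the other members. With EMP1 chosen for this contrast, neither count is read as a result about the family. Groups did not overlap, with the knockout higher, for EMP1 and EMP3, and for 5.23% of all genes tested.

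**Figure D1:**
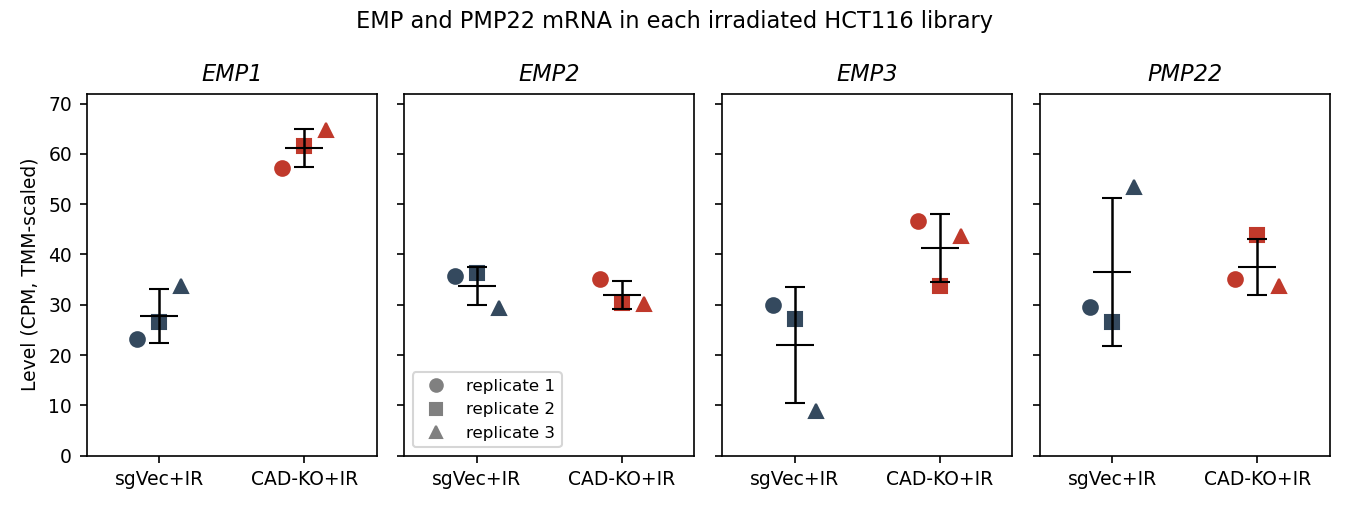
Level of each member in CPM (vertical axis, TMM-scaled) in the 3 sgVec+IR and 3 CAD-KO+IR libraries, with 1 symbol for each replicate and black bars for mean and SD. EMP1 sits between 57.2 and 64.7 CPM in CAD-KO+IR and between 23.1 and 33.7 in sgVec+IR, whereas the groups of EMP2 and PMP22 overlap and sgVec+IR replicate 3 is lowest for EMP3 and highest for PMP22.

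EMP2 differed little between the groups. It stood at 35.1, 30.4 and 30.1 CPM in CAD-KO+IR and at 35.7, 36.3 and 29.3 CPM in sgVec+IR, and both the lowest and the highest value came from sgVec+IR. The lowest was that of sgVec+IR replicate 3, while the other control libraries lay above every knockout library. The log2 fold change was -0.08 ± 0.181 (SE), with a 95% interval from -0.51 to 0.34 and an adjusted p of 0.9999 in edgeR. EMP2 was also the steadiest member between replicates, with a within-group SD at the 12.8th percentile of all genes. Dropping sgVec+IR replicate 3 gave -0.17, and edgeR's adjusted p was 0.562.

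EMP3 was the other member with non-overlapping groups, but it did not pass the test. Its levels were 46.6, 33.6 and 43.7 CPM in CAD-KO+IR and 29.97, 27.2 and 8.82 CPM in sgVec+IR. The gap between the groups was small next to the drop in sgVec+IR replicate 3, where only 125 counts were read. The means were 41.3 ± 6.80 and 22.0 ± 11.5 CPM (SD, n = 3 each). The log2 fold change was 0.90 ± 0.417 (SE), with a 95% interval from -0.09 to 1.89 and an adjusted p of 0.9999 in edgeR (unadjusted 0.0677).

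With sgVec+IR replicate 3 left out, the EMP3 log2 fold change was 0.53 and edgeR's adjusted p 0.405. The GC correction gave 38.8, 42.6 and 38.6 CPM against 23.8, 21.2 and 14.4 CPM, and a log2 fold change of 0.99 ± 0.178 (SE) with an adjusted p of 0.104 in edgeR. EMP3 passed an adjusted p of 0.05 in 2 of 19 alternatives. Sample weights gave 0.63 with an adjusted p of 0.000986 in limma-voom. In that fit 10.5% of all genes passed that level with the knockout higher. The weights were 1.79, 0.154 and 6.75 for CAD-KO+IR replicates 1, 2 and 3. In sgVec+IR they were 3.76, 3.54 and 0.0404. The knockout side of the fit thus leaned most on CAD-KO+IR replicate 3. Leaving out CAD-KO+IR replicate 2 and sgVec+IR replicate 3 together gave 0.66 with an adjusted p of 8.69e-07 in edgeR, where 7.99% of all genes passed in that direction. This fit had n = 2 in each group and was chosen after seeing the data. It dropped the most deviant library of each group, so the spread that its p is set against was reduced by choice. In it 3875 of 13059 genes had an unadjusted p under 0.05. All 19 alternatives kept the direction, between 0.53 and 1.19.

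PMP22 had overlapping groups, and its direction turned with the libraries used. It stood at 35.1, 43.9 and 33.7 CPM in CAD-KO+IR and at 29.6, 26.5 and 53.3 CPM in sgVec+IR. The highest value of all 6 libraries was that of sgVec+IR replicate 3, while the other control libraries lay below every knockout library. The log2 fold change was 0.05 ± 0.29997 (SE), with a 95% interval from -0.66 to 0.76 and an adjusted p of 0.9999 in edgeR. Dropping sgVec+IR replicate 3 gave 0.42, where edgeR's adjusted p was 0.417, and dropping sgVec+IR replicate 2 gave -0.13. With both libraries that stood apart left out, a choice made after seeing the data, it was 0.30, with an adjusted p of 0.0361 in edgeR. The sample weights, largest for CAD-KO+IR replicate 3, gave 0.27, with an adjusted p of 0.0381 in limma-voom. PMP22 was thus among the same 7.99% and 10.5% of all genes.

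sgVec+IR replicate 3 lay apart from the other control libraries by GC content, and the members moved with it to different degrees. Over 12913 genes, the difference of this library from the mean of the other controls on the log2 CPM scale had a Spearman correlation of -0.715 with the GC content of the longest transcript. Its median ran from 0.92 in the class of genes with the lowest GC content to -1.53 in that with the highest, among 10 classes of equal size. EMP3, with 59.5% GC, differed by -1.68, against a median of -1.16 for genes of like GC content. EMP1, with 42.6% GC, differed by 0.44 against a median of 0.49.

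PMP22, with 46.5% GC, differed by 0.93 where genes of like GC content had a median of 0.07 and a 90th percentile of 0.73. EMP2, at 48.0% GC, differed by -0.29 against the same median. EMP1, EMP2 and EMP3 thus lay within the 10th to 90th percentile of their GC class in this library, and PMP22 lay above it. GC-corrected EMP3 still stood lower in sgVec+IR replicate 3, at 14.4 CPM against 23.8 and 21.2 CPM in the other controls. GC-corrected PMP22 still stood at 49.7 CPM in sgVec+IR replicate 3, against 30.5 and 27.4 CPM in the other controls. CAD-KO+IR replicate 2 had a weaker GC trend of the same direction against its own group, with medians from 0.49 in the lowest class to -0.81 in the highest. Its deviations correlated with those of sgVec+IR replicate 3 at a Pearson r of 0.552. There EMP1, EMP2, EMP3 and PMP22 differed by 0.01, -0.09, -0.42 and 0.35 from the mean of the other knockout libraries. The part of RNA quality or library preparation in these values was not tested.

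**Figure D2:**
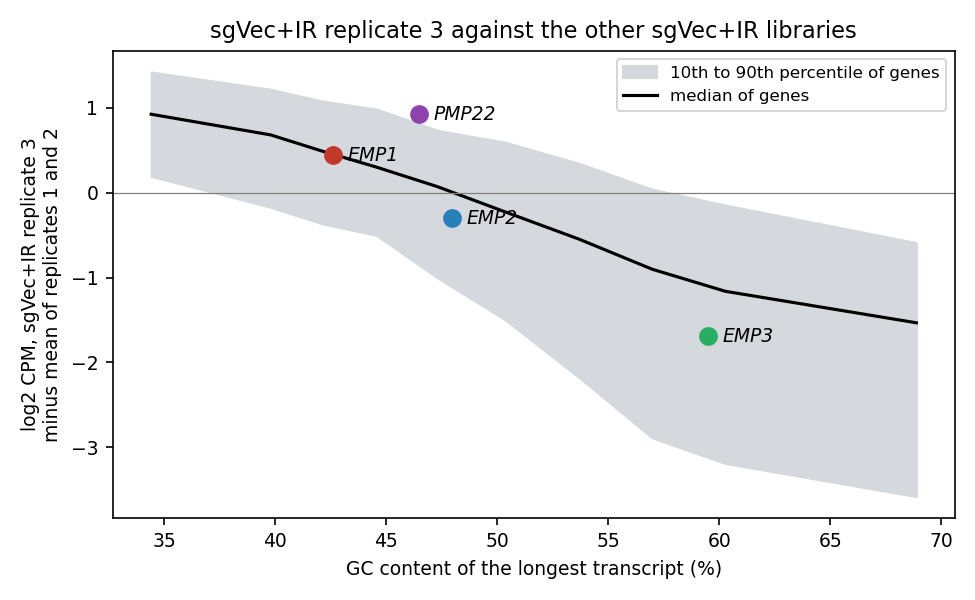
Difference of sgVec+IR replicate 3 from the mean of sgVec+IR replicates 1 and 2 (vertical axis, log2 CPM) against GC content of the longest transcript (horizontal axis, percent). The black line is the median and the grey band the 10th to 90th percentile of genes in classes of like GC content. EMP1 (0.44) lies near the line and EMP3 (-1.68) below it within the band, while PMP22 (0.93) lies above the band.

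Levels of different genes were compared per length, as CPM per kb of exon. In CAD-KO+IR the order was EMP3, PMP22, EMP1 and EMP2, at 24.8 ± 4.08, 11.7 ± 1.72, 7.80 ± 0.477 and 3.65 ± 0.320 CPM per kb (SD, n = 3). No neighbours in that order overlapped, as EMP3 ranged from 20.2 to 28.0, PMP22 from 10.4 to 13.6, EMP1 from 7.30 to 8.25 and EMP2 from 3.45 to 4.02 CPM per kb. In sgVec+IR EMP3 stood at 13.2 ± 6.90 and PMP22 at 11.3 ± 4.55 CPM per kb, and their ranges overlapped. EMP2 at 3.87 ± 0.440 and EMP1 at 3.55 ± 0.689 CPM per kb also overlapped. EMP1 lay below EMP2 in sgVec+IR replicates 1 (2.95 against 4.09) and 2 (3.39 against 4.16). Only in sgVec+IR replicate 3 did EMP1 lie above EMP2 (4.30 against 3.37). Taking the longest transcript as length raised all 4 values. EMP1 then stood at 10.3 and EMP2 at 6.13 CPM per kb in CAD-KO+IR. In sgVec+IR EMP2 stood at 6.496, from 5.65 to 6.98, and EMP1 at 4.69, from 3.90 to 5.69 CPM per kb. Their ranges still overlapped in the controls, but only through sgVec+IR replicate 3, where EMP1 stood at 5.69 and EMP2 at 5.65.

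Of the summed level of the family per kb, EMP1 made up 14.6, 17.4 and 17.1% in CAD-KO+IR and 8.62, 10.6 and 14.6% in sgVec+IR. EMP3 was the largest share in 5 of 6 libraries, at 44.7 to 55.7%, and fell behind PMP22 only in sgVec+IR replicate 3, where EMP3 made up 17.9% and PMP22 56.1%. The summed CPM of the 4 genes lay between 169 and 174 in CAD-KO+IR and between 117 and 125 in sgVec+IR. That sum contains EMP1, which was chosen on this contrast, so it is not read as a result about the family. EMP2 and PMP22 had log2 fold changes of -0.08 and 0.05.

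**Figure D3:**
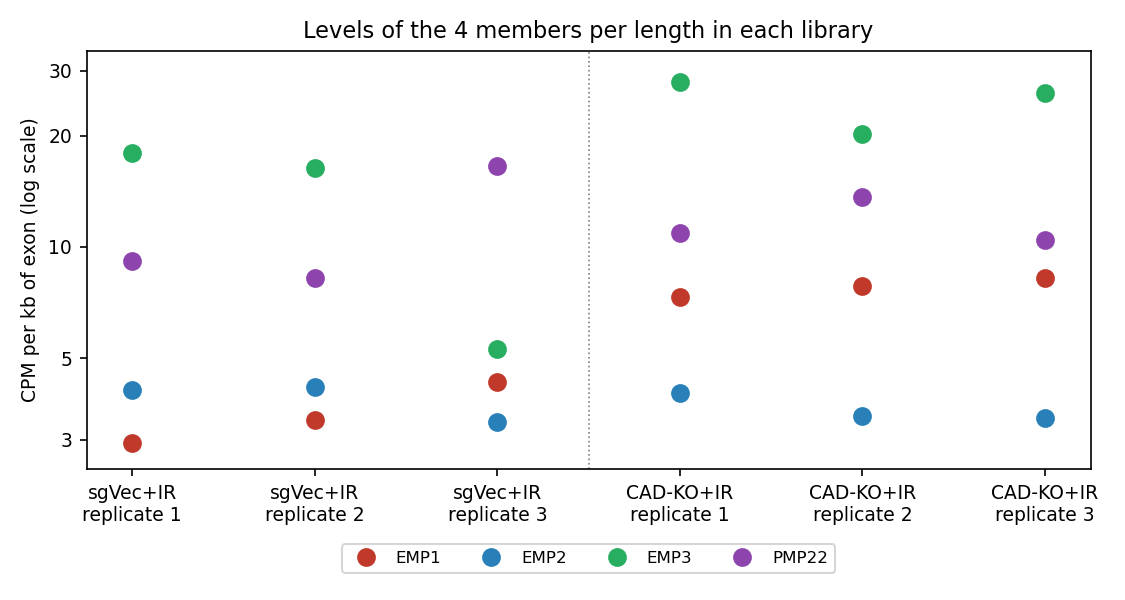
Level of each member in CPM per kb of exon (vertical axis, log scale) in each of the 6 libraries. EMP3 is the highest member in every library except sgVec+IR replicate 3, where it reads 5.29 CPM per kb and PMP22 16.5, and EMP1 lies above EMP2 in all CAD-KO+IR libraries.

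**Figure D4:**
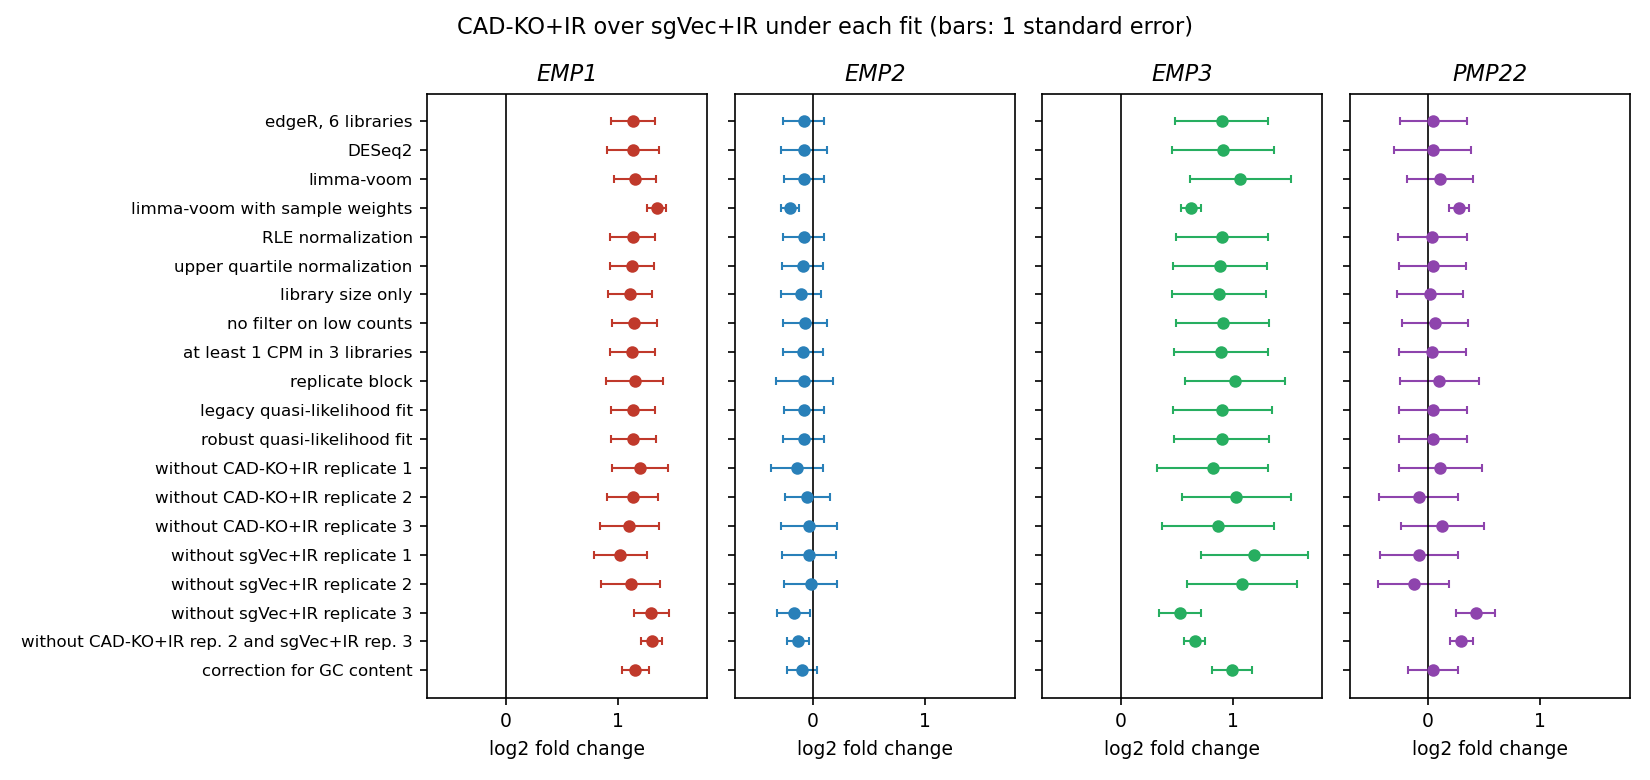
Log2 fold change of CAD-KO+IR over sgVec+IR (horizontal axis) for each member under the edgeR fit on 6 libraries and the 19 alternatives, with bars of 1 standard error. EMP1 ranges from 1.02 to 1.35 and EMP3 from 0.53 to 1.19, EMP2 stays between -0.21 and -0.02, and PMP22 lies on both sides of 0.

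No relative with the same fold passed the test. The list held 42 claudins and claudin-like genes, and 11 of them passed the filter on low counts, while 12 were at 0 in every library. Of these 11, 3 had higher and 8 lower fitted values in CAD-KO+IR. Their median was -0.15 on the log2 scale, against -0.01 over all genes, and 0 were DEGs in edgeR or DESeq2. None had an unadjusted p under 0.05, a level that 368 genes (2.85%) reached in edgeR. PERP, a desmosome protein and p53 target, stood at 218 ± 26.99 CPM in CAD-KO+IR and 242 ± 47.2 CPM in sgVec+IR (SD, n = 3).

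CLDND1 stood at 201 ± 52.2 and 307 ± 163 CPM, a log2 fold change of -0.61 that became -0.08 without sgVec+IR replicate 3, which held 495 CPM. The barrier claudin CLDN4 stood at 109 ± 22.5 and 138 ± 54.9 CPM, with a log2 fold change of -0.34, and of -0.63 without that library. CLDN7 stood at 47.2 ± 11.6 and 49.0 ± 29.2 CPM, and CLDN12 at 35.2 ± 9.80 and 33.5 ± 0.925 CPM. Without sgVec+IR replicate 3 the median of the 11 relatives was -0.28.

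Proteins known to bind members of the family or to be set by them were described as a list of 16 partners, of which 15 were tested. ITGB3, an integrin chain linked to EMP2 in other tissues, had at most 12 counts in a library and was not tested. Fitted values were higher in CAD-KO+IR for 10 partners and lower for 5. Their median was 0.07 on the log2 scale, and 0 were DEGs in edgeR or DESeq2. EGFR, the receptor of epidermal growth factor, and ITGA6, the laminin-binding integrin chain, were the 2 of 15 partners whose groups did not overlap, with the knockout higher, against 5.23% of all genes tested. They were also the 2 with an unadjusted p under 0.05 in edgeR, which 2.85% of all genes tested had in either direction.

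EGFR stood at 162, 180 and 161 CPM in CAD-KO+IR and at 125, 129 and 115 CPM in sgVec+IR. Its log2 fold change was 0.44 ± 0.144 (SE), with an adjusted p of 0.9999 in edgeR (unadjusted 0.0175). ITGA6 stood at 213, 265 and 213 CPM against 169, 159 and 183 CPM, with a log2 fold change of 0.44 ± 0.158 (SE) and an adjusted p of 0.9999 in edgeR (unadjusted 0.0284). Neither passed the test.

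The caveolae protein CAV1 stood at 522, 688 and 572 CPM in CAD-KO+IR and at 370, 363 and 567 CPM in sgVec+IR, so the groups overlapped through sgVec+IR replicate 3. Its log2 fold change was 0.45, and 0.70 without that library. CANX, the chaperone calnexin that holds PMP22 in the endoplasmic reticulum, stood at 967 ± 138 and 877 ± 176 CPM. The integrin chains ITGB1 and ITGB4 stood at 620 ± 113 and 512 ± 59.4 CPM and at 490 ± 133 and 445 ± 215 CPM, and the hyaluronan receptor CD44 at 558 ± 59.1 and 596 ± 79.0 CPM. P2RX7, the ATP-gated channel that members of the family bind, was low at 2.23 ± 0.284 and 2.18 ± 0.915 CPM.

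Of 8 genes of the myelin programme in which PMP22 is known to act, 4 were tested and 0 were DEGs in edgeR or DESeq2. The Schwann cell factor SOX10 had at most 11 counts, GJB1 at most 1 and MAG at most 2 in a library. MBP, which is also transcribed outside glia, stood at 52.7 ± 4.88 CPM in CAD-KO+IR and 66.6 ± 3.04 CPM in sgVec+IR. Among the 7 tested colorectal epithelial markers, 2 had fitted values higher in CAD-KO+IR and 5 lower, and 1, the adhesion protein E-cadherin (CDH1), had an unadjusted p under 0.05 in edgeR, against 2.85% of all genes tested. CDH1 stood at 66.7 ± 2.95 and 97.1 ± 2.90 CPM, a log2 fold change of -0.54 with an adjusted p of 0.9999 in edgeR. Groups of CDH1 and MBP did not overlap, with the knockout lower, as for 648 of 12925 genes tested. Those of the keratin KRT18 did not overlap either, with the knockout higher, as for 676 of the genes tested. KRT18 stood at 494, 446 and 487 CPM in CAD-KO+IR and 440, 435 and 274 CPM in sgVec+IR. Its log2 fold change of 0.31 was 0.12 without sgVec+IR replicate 3, and it did not pass the test. KRT8, its partner keratin, had a log2 fold change of 0.21, and of -0.12 without that library.

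No neighbour of a member on its chromosome passed the test. The nearest tested genes around EMP1 were FAM234B and HEBP1 on the side of lower coordinates, with log2 fold changes of 0.13 and -0.23, and GRIN2B and ATF7IP on the other side, with 0.43 and -0.25. FAM234B lay 54.2 kb away and GRIN2B 218 kb. Over all 16 neighbours of the 4 members the lowest unadjusted p in edgeR was 0.109, for TMEM143 beside EMP3, and the adjusted p was 0.9999 for each.

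The genes whose log2 CPM followed EMP1 most closely over the 6 libraries were GABRE, TEX14, SAMD4A, SLC6A20 and PRKAA2, with Pearson r from 0.980 to 0.996. These values are descriptive, because all 6 points share the split into groups, the depth and the GC trend of the libraries. GABRE, a subunit of GABA-A receptors, stood at 4.88, 5.54 and 5.98 CPM in CAD-KO+IR and at 2.26, 2.53 and 3.03 CPM in sgVec+IR, so both groups had their highest values in the same libraries as EMP1. PRKAA2, a catalytic subunit of the kinase AMPK, stood at 23.8, 33.3 and 27.5 CPM against 3.42, 4.59 and 4.87 CPM, a log2 fold change of 2.72. SLC6A20, an amino acid transporter, had a log2 fold change of 1.32, the RNA-binding protein SAMD4A one of 0.66 and TEX14 one of 0.38.

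Without sgVec+IR replicate 3 the 5 closest genes were GABRE, GLIS3, TENT4A, ZEB1 and MAMLD1, with r from 0.995 to 0.997 over 5 libraries, and GABRE was the only gene in both lists. ZEB1, a repressor of epithelial genes such as E-cadherin, stood at 6.40, 6.17 and 6.43 CPM against 2.997, 3.35 and 4.73 CPM. With 5 libraries 20 genes had an r over 0.99, and with 6 libraries 1 gene.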

How the data were processed

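RNA-seq was analysed in 6 libraries of HCT116 cells. The authors extracted total RNA with TRIzol, trimmed reads by fastp and deposited unnormalized counts per gene from featureCounts (version 1.5.0-p3). The aligner, annotation and strand setting are not given in the sources used here. The submitters' processing notes list the build mm10, although the gene identifiers are human, so positions came only from gene identities (19823 of 20020 matched GENCODE release 29). In the labels the molecule is genomic DNA, but the methods describe RNA.

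From the deposited counts, genes were kept by filterByExpr (minimum count 10, minimum total 15), scaled by TMM and compared with edgeR 4.0.16 (quasi-likelihood, legacy set to FALSE) in R 4.3.3, with Benjamini-Hochberg adjustment over 12925 genes. CPM used TMM-scaled library sizes, and log2 CPM a prior count of 2. Intervals have a confidence level of 95%. DESeq2 1.42.0, limma 3.58.1, other scalings and filters, a replicate block and leaving out each library were alternatives. The GC correction (span 0.3) and leaving out both libraries that stood apart were chosen after seeing the data. Named genes were the members, DFFB, the 5 genes nearest in pattern to EMP1, 2 neighbours on each side, and of each list the genes with an unadjusted p under 0.05 and the 5 most abundant, of which a selection is given. ODAD1, ZEB1 and genes with few or no counts were also named. The members and lists were chosen with earlier results of these data known, and the lists carry no test. A further gene of the myelin list is not reported here. Scripts were tested on simulated data.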

Additional observations from a re-analysis of the deposited data

How the results depend on the processing

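EMP1 kept its direction in all 19 alternatives (log2 fold change 1.02 to 1.35), with the highest value, 1.35, in limma-voom with sample weights. This is a description, since the alternatives used the same libraries on which EMP1 was selected. EMP2 kept its direction and stayed above an adjusted p of 0.05 in all 19. EMP3 passed an adjusted p of 0.05 with sample weights (0.63) and without CAD-KO+IR replicate 2 and sgVec+IR replicate 3 together (0.66), as did PMP22 (0.27 and 0.30). Leaving out each library in turn gave 0.53 to 1.19 for EMP3 and -0.13 to 0.42 for PMP22, which turned negative without CAD-KO+IR replicate 2 (-0.08) and without replicate 1 (-0.08) or 2 (-0.13) of sgVec+IR. The cause was not tested.

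Counts of DEGs, 1 up and 3 down in edgeR, moved most. They were 20 up and 21 down in DESeq2, 20 and 22 with the GC correction, 212 and 454 with sample weights, and 139 and 301 without both libraries that stood apart. The paper, which used an earlier DESeq2 version, reports more DEGs in each direction than the DESeq2 run here called. The reason was not tested. Leaving out each library gave 0 to 11 up and 0 to 11 down, the highest without sgVec+IR replicate 3. It gave 0 in edgeR without CAD-KO+IR replicate 1, 2 or 3, with 194, 216 and 160 genes at an unadjusted p under 0.05. Plain limma-voom gave 0 up and 0 down, with 302 genes at an unadjusted p under 0.05. With the longest transcript as length the mean levels were 7.51, 6.31, 36.1 and 19.9 CPM per kb for EMP1, EMP2, EMP3 and PMP22.

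The replicate block gave 0 DEGs up and 0 down in edgeR, with 146 genes at an unadjusted p under 0.05, and log2 fold changes of 1.15, -0.08, 1.02 and 0.10 for EMP1, EMP2, EMP3 and PMP22. The numbers are not shown to pair the libraries, since deviations of libraries with the same number correlated at 0.468, -0.545 and -0.379. Each member had 125 to 1166 counts in each library, and intervals here hold only for these 6 libraries.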
